A study of Sus scrofa with 8 samples.

Results

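Both neobladders of this pig study, the experimental and the control one, were compared as 1 side of 4 libraries with both unoperated tissues, the native bladder and the peritoneum, as the other side of 4 libraries. A gene was kept when every neobladder library lay above, or every one lay below, all 4 unoperated libraries on a common scale of counts per M (CPM). Of 31907 genes in the files, 1022 lay above and 1185 below, 2207 in all. After genes with too few counts to test were set aside, 928 of the higher genes (5.61% of 16549 tested) and 1119 of the lower genes (6.76%) remained. A gene without overlap need not be particular to a neobladder, since the sides also differ in the tissues they are made of.

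The study asked whether a pig's own peritoneum can take the place of the mucosa in a neobladder, a urine reservoir built from ileum. Messenger RNA was sequenced in 2 libraries from each of 4 groups of Guizhou minipig tissue, all aged 8 months: mucosa of the neobladder from the experimental group (MN-Exp), mucosa of the neobladder from the control group (MN-Ctrl), mucosa of normal bladder (MNB) and normal peritoneum (NP). The labels name no genetic change, drug or other agent for any group, and give neither the lining of the control neobladder, the time since surgery nor the number of animals. Replicates are therefore samples whose separate origin is not stated, and every p-value below measures the spread between these samples, which may be technical.

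Some background helps in reading the genes that follow. The aryl hydrocarbon receptor (AHR) is a ligand-activated transcription factor that binds planar aromatic compounds and indoles, many of them from diet and gut bacteria, pairs with ARNT and switches on CYP1 oxidases and its own repressor AHRR. The pregnane X receptor, encoded by NR1I2, senses bile acids and drugs and is made mainly in liver and intestine. Intestinal epithelium holds resident CD8 T cells between its epithelial cells, while the peritoneum is a thin mesothelium over connective tissue rich in fibrillar collagen.

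Libraries held 7.94 to 11.88 M counts. The trimmed mean of M-values (TMM) factor, which rescales a library for a few genes taking much of its counts, was 1.088 to 1.239 in 6 libraries but 0.839 and 0.449 in control neobladder, and replicates of the control neobladder resembled each other least (r = 0.924 across genes, which are not independent replicates, against 0.961 to 0.981). Marker levels fitted the labelled tissues in part. Uroplakin 3A (UPK3A), a urothelial plaque protein, stood at 1511 and 1602 CPM in native bladder, 913 and 1604 CPM in experimental neobladder, 40.5 and 103 CPM in control neobladder and 6.83 and 4.81 CPM in peritoneum. WT1, a mesothelial transcription factor, stood at 27.7 and 25.3 CPM in peritoneum and at 0.187 CPM or less elsewhere, experimental neobladder included. The ileal bile acid carrier FABP6 stood at 31351 and 157528 CPM in control neobladder and at 43.6 CPM or less in the other groups.

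The first question was how many genes separated the sides. The contrast of the 2 neobladder means with the 2 unoperated means, tested with edgeR's quasi-likelihood test on 4 group means, called 2269 genes higher (13.7% of those tested) and 2164 lower (13.1%) at an adjusted p below 0.05. Of the genes without overlap, 691 higher genes (4.18% of genes tested) and 837 lower genes (5.06%) were also called. The same 8 libraries chose these genes and measured them, so their fold changes are given as a description. The other 2905 called genes had libraries that overlapped. Median log2 fold changes were 1.41 in the genes above and -1.64 in the genes below, beside -0.03 over all genes tested.

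Most gaps between the sides were narrow. The lowest neobladder library exceeded the highest unoperated library by at least 1.5-fold in 122 genes and by at least 2-fold in 44, with 0.5 CPM added to each level. In the other direction the same gaps were met by 234 and 63 genes. At the edge of the rule, DTYMK, a thymidylate kinase, was just inside as a higher gene, with 8.65 CPM in its lowest neobladder library and 8.64 CPM in its highest unoperated library. RLF, a zinc finger protein, was just inside as a lower gene, with 17.3 CPM in its highest neobladder library and 17.3 CPM in its lowest unoperated library. FCAR, an IgA receptor, was just outside, with its nearest libraries of the 2 sides tied at 0 counts.

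All of these counts depend on how the libraries are modelled and scaled. When the 4 libraries of a side were treated as replicates of each other, with no term for the group within it, the same edgeR test called 0 genes (3497 at an unadjusted p under 0.05, smallest adjusted p = 0.135), while DESeq2 with 4 group means called 3100 higher and 2416 lower. On library totals without TMM scaling, genes without overlap numbered 302 higher and 1878 lower (13.9% higher, against 45.3% with TMM), calls numbered 1016 and 3156 (24.4% higher, against 51.2%), and the median of all genes moved from -0.03 to -0.52. All 302 and 1004 of the lower genes were without overlap under TMM, library totals and DESeq2 size factors, and every gene named with a wide gap below was among them.

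**Figure D1:**
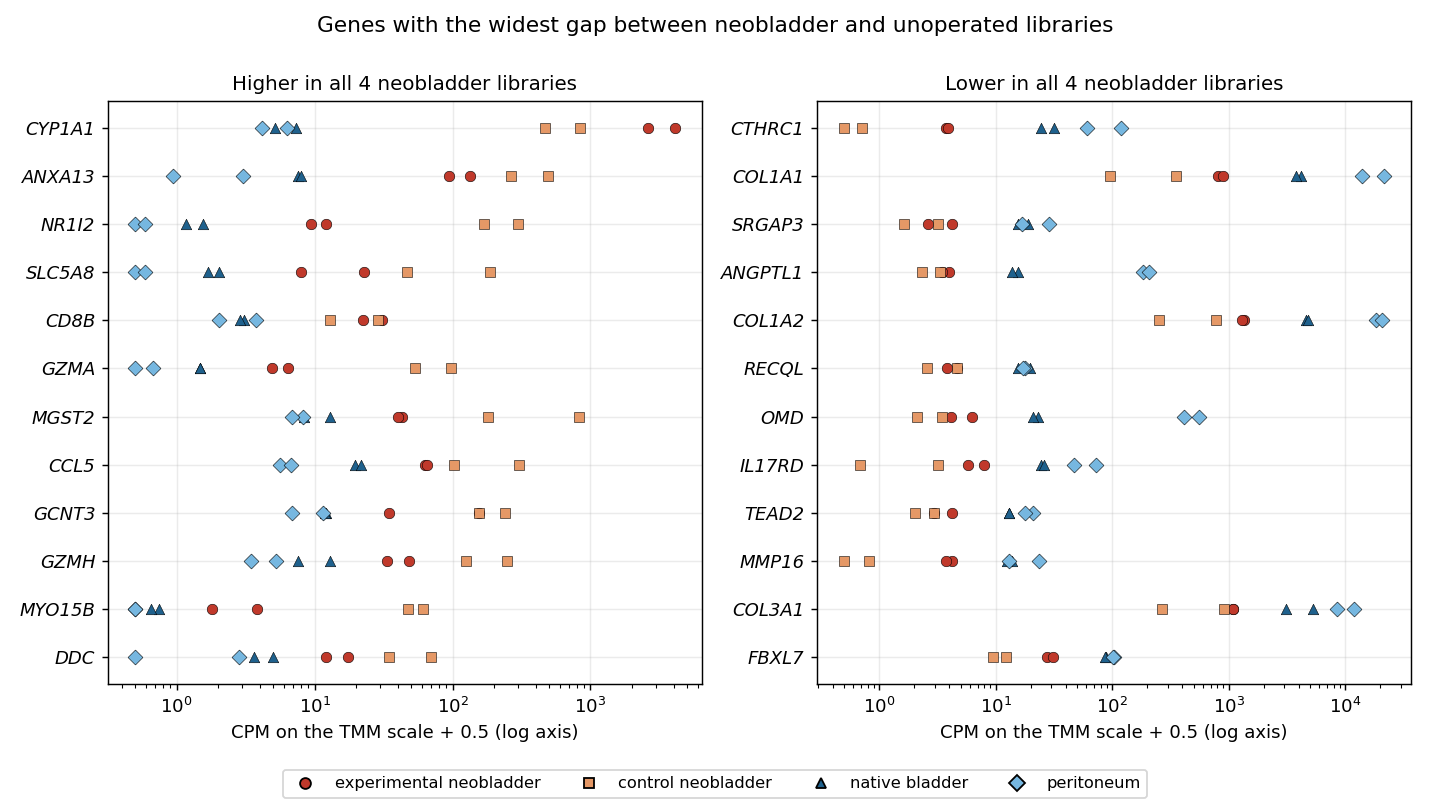
Level of each of the 12 genes per direction with the widest gap between the sides, in CPM on the TMM scale with 0.5 added (log axis), where each marker is 1 library and its shape and colour give the group. In every gene the 4 neobladder libraries stand on 1 side of the 4 unoperated libraries, most widely in CYP1A1.

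CYP1A1 had the widest gap of the higher genes. CYP1A1, the oxidase that is the best known target of the aryl hydrocarbon receptor, stood at 2623 and 4065 CPM in experimental and 843 and 466 CPM in control neobladder. Its levels were 6.87 and 4.71 CPM in native bladder and 5.81 and 3.65 CPM in peritoneum, so its lowest neobladder library stood 63.4-fold above its highest unoperated library. Its log2 fold change was 8.14 ± 0.51 (SE, adjusted p = 7.34e-05, edgeR). The gene lies on chromosome 7 of Sscrofa11.1 at 58802887 to 58809155. Each neobladder exceeded each unoperated tissue, with log2 fold changes of 9.17 and 9.46 for experimental neobladder against native bladder and peritoneum and 6.82 and 7.11 for control neobladder (adjusted p = 0.00122, 3.8e-05, 0.000111 and 4.91e-05).

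The other members of the receptor's battery did not all follow. CYP1A2, a closely related oxidase best known from liver, also showed no overlap, with 8.98 and 11.1 CPM in experimental and 2.40 and 1.69 CPM in control neobladder, against at most 0.204 CPM (2 counts) in any unoperated library. CYP1B1, the third oxidase of the group, did not meet the rule. It stood at 163 and 366 CPM in experimental neobladder, but at 31.6 and 25.1 CPM in control neobladder, 28 and 14 CPM in native bladder and 27.1 and 31.4 CPM in peritoneum. The contrast still called it higher (log2 fold change 1.81 ± 0.34 SE, adjusted p = 0.00421), and its level in control neobladder did not differ by the test from that in native bladder (log2 fold change 0.43, adjusted p = 0.543) or peritoneum (-0.04, adjusted p = 0.954). AHRR, the receptor's repressor, stood at 74.2 and 130.2 CPM in experimental neobladder, 15.9 and 10.7 CPM in control neobladder, 24.3 and 27.3 CPM in native bladder and 0.306 and 0.446 CPM in peritoneum. The contrast called AHRR higher (log2 fold change 3.54 ± 0.34 SE, adjusted p = 0.000111), but native bladder lay above control neobladder. The receptor AHR itself was not called (log2 fold change -0.86 ± 0.31 SE, adjusted p = 0.0621), and its partner ARNT fell (-0.81 ± 0.26 SE, adjusted p = 0.0433). Over the 11 tested members of the battery, 2 were without overlap as higher and 1 as lower, 5 were called higher and 2 lower, and the median log2 fold change was 1.51. These shares without overlap were 18.2% and 9.09%, beside 5.61% and 6.76% of all genes tested. The lower member, the aldehyde dehydrogenase ALDH3A1, stood at 0 and 0.0927 CPM in experimental and 0.218 and 0.187 CPM in control neobladder (1 and 3 counts in all), against 0.323 and 0.896 CPM in native bladder and 2.55 and 0.713 CPM in peritoneum, a gap of 1.15-fold among levels near the counting floor.

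NR1I2, the pregnane X receptor, also separated the sides, with the neobladders in the opposite order from CYP1A1. It stood at 11.6 and 8.99 CPM in experimental neobladder, 298 and 169 CPM in control neobladder, 1.05 and 0.672 CPM in native bladder and 0 and 0.0891 CPM in peritoneum, where it had 1 count. The lowest neobladder library stood 6.13-fold above the highest unoperated library, and the contrast called the gene (adjusted p = 7.34e-05, edgeR). NR1I2 lies on chromosome 13 at 140373571 to 140406129. Experimental neobladder alone exceeded native bladder by 3.57 on the log2 scale (adjusted p = 0.034). Control neobladder exceeded experimental neobladder by far more, so NR1I2 fell by 4.50 on the log2 scale from control to experimental neobladder (adjusted p = 0.000188), while CYP1A1 rose by 2.35 (adjusted p = 0.013). Of the other tested genes of its list, the exporter ABCC2 (2.48 ± 0.50 SE, adjusted p = 0.00528) and the haem synthesis enzyme ALAS1 (1.24 ± 0.34 SE, adjusted p = 0.0238) were called higher with overlap, and ABCC3 (0.56) and RXRA (-0.06) were not called. The list held 22 symbols, of which 5 were tested.

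Antioxidant and glutathione genes were higher in 5 of 18 tested members without overlap and in 8 by the test, with 0 lower by either measure and a median log2 fold change of 0.70. The shares were 27.8% and 44.4%, beside 5.61% and 13.7% of all genes tested. On library totals the median was 0.15. Between experimental neobladder and native bladder 0 of the 18 were called, beside 0.0423% higher and 0.0544% lower of all genes tested. GPX2, a glutathione peroxidase of gut and bladder epithelium, stood at 1248 and 717 CPM in experimental and 821 and 1616 CPM in control neobladder, against 562 and 348 CPM in native bladder and 2.75 and 1.34 CPM in peritoneum. MGST2, a microsomal glutathione transferase, stood at 42.6 and 39.7 CPM and 180.3 and 821 CPM in the neobladders and at 7.92 and 12.4 CPM and 7.74 and 6.33 CPM in the unoperated tissues. Log2 fold changes were 5.17 ± 0.47 (SE, adjusted p = 9.98e-05) for GPX2 and 4.08 ± 0.48 (adjusted p = 0.000299) for MGST2. Glutathione reductase (GSR) and the peroxiredoxin PRDX1 were called higher without overlap, and KEAP1, which holds the regulator NRF2 in check, showed no overlap but was not called (log2 fold change 0.53, adjusted p = 0.145). On library totals alone GPX2 and MGST2 remained without overlap and the other 3 did not. The transcript of NRF2 (NFE2L2) was not called (log2 fold change -0.19 ± 0.31 SE, adjusted p = 0.686).

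**Figure D2:**
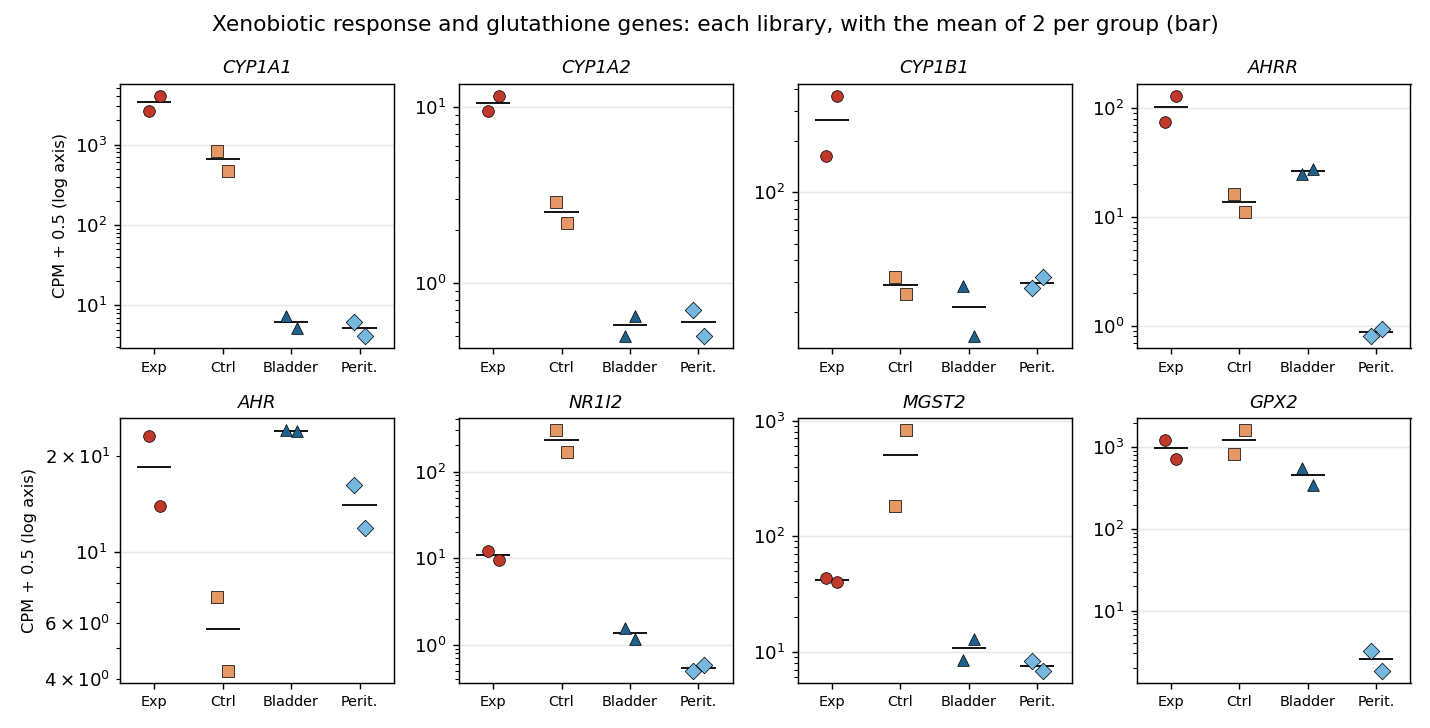
Level of 8 xenobiotic response and glutathione genes in CPM with 0.5 added (log axes that differ between panels), with each library as a marker and the mean of 2 libraries as a bar. CYP1A1, CYP1A2, NR1I2, MGST2 and GPX2 separate the neobladders from native bladder and peritoneum, whereas CYP1B1, AHRR and AHR overlap.

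Several epithelial genes known from intestine were higher in both neobladders, at very different levels in the 2. ANXA13, an annexin of intestinal and kidney epithelium, stood at 134 and 93.6 CPM in experimental and 267 and 493 CPM in control neobladder, against 7.03 and 7.47 CPM in native bladder and 2.55 and 0.446 CPM in peritoneum. Its log2 fold change was 5.98 ± 0.51 (SE, adjusted p = 8.55e-05), and its gap of 11.8-fold was the second widest. GCNT3, which builds branched mucin glycans, stood at 154 and 33.9 CPM and 239 and 155 CPM in the neobladders and at 11.6 CPM or less in the unoperated tissues. SLC5A8, a carrier of short-chain fatty acids, stood at 22.4 and 7.51 CPM in experimental and 187 and 46.1 CPM in control neobladder, with 1.53 CPM or less in the 4 unoperated libraries. The unconventional myosin MYO15B stood at 3.31 and 1.30 and 60.8 and 47.4 CPM against 0.242 CPM or less, and DDC, which makes dopamine and serotonin from their precursors, at 17 and 11.6 and 69.1 and 34.1 CPM against 4.52 CPM or less. In each of these 5 genes both experimental libraries lay below both control libraries, in GCNT3 only just.

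Lists of intestinal genes were high in control neobladder, while experimental neobladder was not set apart in them as a group. Of 21 enterocyte genes tested, 20 were called higher by the contrast but only AMN, APOB and VIL1 were without overlap. The shares were 95.2% and 14.3%, beside 13.7% and 5.61% of all genes tested. Summed over the list, levels were 51199 and 169019 CPM in control neobladder and 319 and 257 CPM in experimental neobladder, against 218 and 295 CPM in native bladder and 871 and 793 CPM in peritoneum. All 21 were called higher in control neobladder than in native bladder, and 0 in experimental neobladder. Those comparisons called 11.2% and 0.0423% of all genes tested higher. VIL1 (villin), which bundles actin in microvilli, stood at 2431 and 829.9 CPM in control neobladder, 15.5 and 2.23 CPM in experimental neobladder and at most 1.34 CPM in the unoperated tissues. AMN, part of the ileal vitamin B12 receptor, stood at 134 and 101, 13 and 10.9 and at most 6.50 CPM in the same order. APOB stood at 136 and 65.8 CPM in control neobladder, 0.763 and 0.371 CPM in experimental neobladder and at most 0.356 CPM in the unoperated tissues. Its gap of 1.02-fold lay near the counting floor, and it overlapped on library totals. The other 18 enterocyte genes overlapped, for example the bile acid transporter SLC10A2, with 728 and 426 CPM in control neobladder, 0.254 and 0.278 CPM in experimental neobladder and up to 0.267 CPM outside them. Of 14 intestinal identity genes, LGALS4 and VIL1 were without overlap (14.3%, beside 5.61% of all genes tested). LGALS4, a galectin of the gut surface, stood at 818 and 689 CPM in experimental and 2933 and 4699.6 CPM in control neobladder, against 321 and 399 CPM in native bladder and 0.815 and 1.96 CPM in peritoneum. Of 12 goblet and secretory genes, CLCA1, MUC13 and GFI1 were without overlap and 10 were called higher. Those shares were 25% and 83.3%, beside 5.61% and 13.7% of all genes tested. CLCA1, a secreted product of goblet cells, stood at 80.5 and 11.3 CPM and 10345 and 1672 CPM against at most 7.47 CPM.

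Among 24 epithelial junction genes, 12 were called higher and CLDN1, CLDN10 and TJP1 lower, and EPCAM, CLDN3 (both higher) and CLDN10 (lower) were without overlap. The shares without overlap, 8.33% and 4.17%, lay near those of all genes tested (5.61% and 6.76%), and the called shares were 50% and 12.5% beside 13.7% and 13.1%. EPCAM, an adhesion molecule of simple epithelium, stood at 524 and 431 CPM in experimental and 746 and 394 CPM in control neobladder, 348 and 330.5 CPM in native bladder and 2.24 and 2.41 CPM in peritoneum. Its separation from native bladder was slight and was not kept on library totals, and its fold change rests on the low level in peritoneum. Summed over this list, levels were 6746 and 10248 CPM in experimental neobladder, 6429 and 3135 CPM in control neobladder, 10517 and 5629 CPM in native bladder and 712 and 862 CPM in peritoneum. The summed level differed between native bladder and peritoneum in every library, and native bladder lay within the range of the neobladders or above it. In bulk tissue, fewer cells of a type and less RNA per cell cannot be told apart, here and in all that follows.

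Of 19 genes on the T and NK cell list, 7 were without overlap, all higher (36.8%, beside 5.61% of all genes tested). By the test 15 were called higher (78.9%, beside 13.7%) with 0 lower, at a median log2 fold change of 2.10. Tissue by tissue, experimental neobladder had a median log2 difference of 0.39 from native bladder with 0 called and of 2.56 from peritoneum with 10 called. Control neobladder had 1.87 with 12 called and 3.17 with 16 called. Of all genes tested, these comparisons called 0.0423%, 12.4%, 11.2% and 21.6% higher in the order given. CD8B, a chain of the CD8 co-receptor of cytotoxic and intraepithelial T cells, stood at 30.4 and 22 CPM in experimental and 12.4 and 28.1 CPM in control neobladder, against 2.58 and 2.39 CPM in native bladder and 3.26 and 1.51 CPM in peritoneum. Its log2 fold change was 3.24 ± 0.39 (SE, adjusted p = 0.000365), and the reservoirs did not differ in it by the test (experimental minus control 0.38, adjusted p = 0.614). The other CD8 chain, CD8A, stood at 61 and 40.8 CPM and 57.6 and 41.2 CPM in the reservoirs against 20.7 and 14.1 CPM and 4.38 and 7.40 CPM, a difference of 2.31 ± 0.30 on the log2 scale (adjusted p = 0.000544). Its difference between the reservoirs was 0.04 (adjusted p = 0.956).

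Cytotoxic and chemokine transcripts followed, at higher levels in control neobladder. CCL5, a chemokine of activated T cells, stood at 62.3 and 64.8 CPM in experimental and 103 and 303 CPM in control neobladder, against 19.1 and 21.3 CPM in native bladder and 5.09 and 6.24 CPM in peritoneum (log2 fold change 3.40 ± 0.37 SE, adjusted p = 0.000185). GZMH, a granzyme, stood at 33.1 and 47.9 and 125 and 246 CPM against 7.03 and 12.5 and 2.95 and 4.72 CPM (3.82 ± 0.37 SE, adjusted p = 0.000113). Granzyme A was carried by 2 Ensembl genes of the same symbol, between which the counting could have split reads. ENSSSCG00000016902 stood at 4.41 and 5.93 and 53 and 96.3 CPM in the reservoirs and at 0.971 CPM or less outside, and the other overlapped. IL7R, ITGAE (the integrin chain that anchors T cells to epithelium) and the kinase LCK completed the 7.

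Some other T cell genes, pan-T genes such as CD3E among them, were higher by the test but overlapped with native bladder. CD3E, a chain of the T cell receptor complex, stood at 22 and 12.2 CPM in experimental neobladder and 13.9 and 12 CPM in native bladder, beside 46 and 48.7 CPM in control neobladder and 2.24 and 4.81 CPM in peritoneum. Genes not called were the granzyme GZMK, the natural killer gene NKG7, EOMES and PRF1. Without experimental replicate 2 the list had 12 members without overlap, without native bladder replicate 1 it had 11, and on library totals 4. Those 2 libraries decided whether pan-T genes such as CD3E met the rule. Summed over the list, levels were 437.5 and 330.4 CPM in experimental and 816 and 1354 CPM in control neobladder, against 255 and 246 CPM in native bladder and 104 and 121 CPM in peritoneum. Other immune lists had few members without overlap or none. CD68 (higher) and MRC1 (lower) were those of 16 macrophage and dendritic cell genes (6.25% each). ELANE (lower) was that of 8 neutrophil genes (12.5%) and MX1 (lower) that of 25 interferon response genes (4%). Over all genes tested the shares were 5.61% higher and 6.76% lower. Plasma and B cell genes had 0 of 15 members without overlap and 11 called higher (73.3%, beside 13.7% of all genes tested). Without experimental replicate 2 the first count was 7.

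Among genes of the epithelial response to microbes, IL18 and TLR2 were without overlap, both higher, of 18 tested (11.1%, beside 5.61% of all genes tested). IL18, a cytokine stored in epithelial cells, stood at 80.4 and 89.5 CPM in experimental and 62.7 and 134 CPM in control neobladder, against 31.8 and 23.8 CPM in native bladder and 8.15 and 5.79 CPM in peritoneum. Its log2 fold change was 2.71 ± 0.32 (SE, adjusted p = 0.000309), with a difference of -0.21 between the reservoirs (adjusted p = 0.752). TLR2, a receptor for bacterial lipoproteins, stood at 115 and 78.9 and 80.7 and 54 CPM against 35 and 35.6 and 35.2 and 49.6 CPM (1.06 ± 0.27 SE, adjusted p = 0.0162), and overlapped on library totals. Of the 18 genes, 10 were called higher and 1, the siderophore-binding protein LCN2, lower. The called shares were 55.6% and 5.56%, beside 13.7% and 13.1% of all genes tested. Between experimental neobladder and native bladder 0 of the 18 were called, beside 0.0423% higher and 0.0544% lower of all genes tested.

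Nuclear genes of oxidative phosphorylation were the list with the largest share of higher members without overlap, 12 of 18. By the test 17 were called higher, at a median log2 fold change of 1.43. The shares were 66.7% and 94.4%, beside 5.61% and 13.7% of all genes tested. Between experimental neobladder and native bladder 0 of the 18 were called, at a median log2 difference of 0.25. That comparison called 0.0423% of all genes tested higher and 0.0544% lower. COX5B, a subunit of cytochrome c oxidase, stood at 611 and 682 CPM in experimental and 1169.7 and 7521 CPM in control neobladder, against 372 and 559 CPM in native bladder and 235 and 175 CPM in peritoneum. UQCRC1, a core subunit of complex III, stood at 435 and 423 and 888 and 1558 CPM against 290.2 and 334 and 151 and 161 CPM, and SDHD, an anchor of complex II, at 238 and 249 and 529 and 1090.5 CPM against 160.3 and 208 and 157 and 153 CPM. Experimental neobladder lay close above native bladder in each, and control neobladder far above it.

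This list moved with the scaling and with single libraries. On library totals 7 members were without overlap and 9 called higher, and leaving out a native bladder, peritoneum or experimental library gave 7 to 13 calls. Without control neobladder replicate 2, whose summed level was 25514 CPM against 9860 CPM in replicate 1, the counts were 12 without overlap and 17 called. Cytosolic ribosomal protein genes were also carried by that library at a summed 91797 CPM, against 10555 to 17975 CPM in the other 7. Of 17 ribosomal genes, 5 were without overlap (29.4%, beside 5.61% of all genes tested) and 1, RPL23, was called (5.88%, beside 13.7%). On library totals 0 of these were without overlap, and without control neobladder replicate 1, which leaves replicate 2 alone in its group, all 17 were called. Their part in the difference in oxidative phosphorylation genes was not tested.

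**Figure D3:**
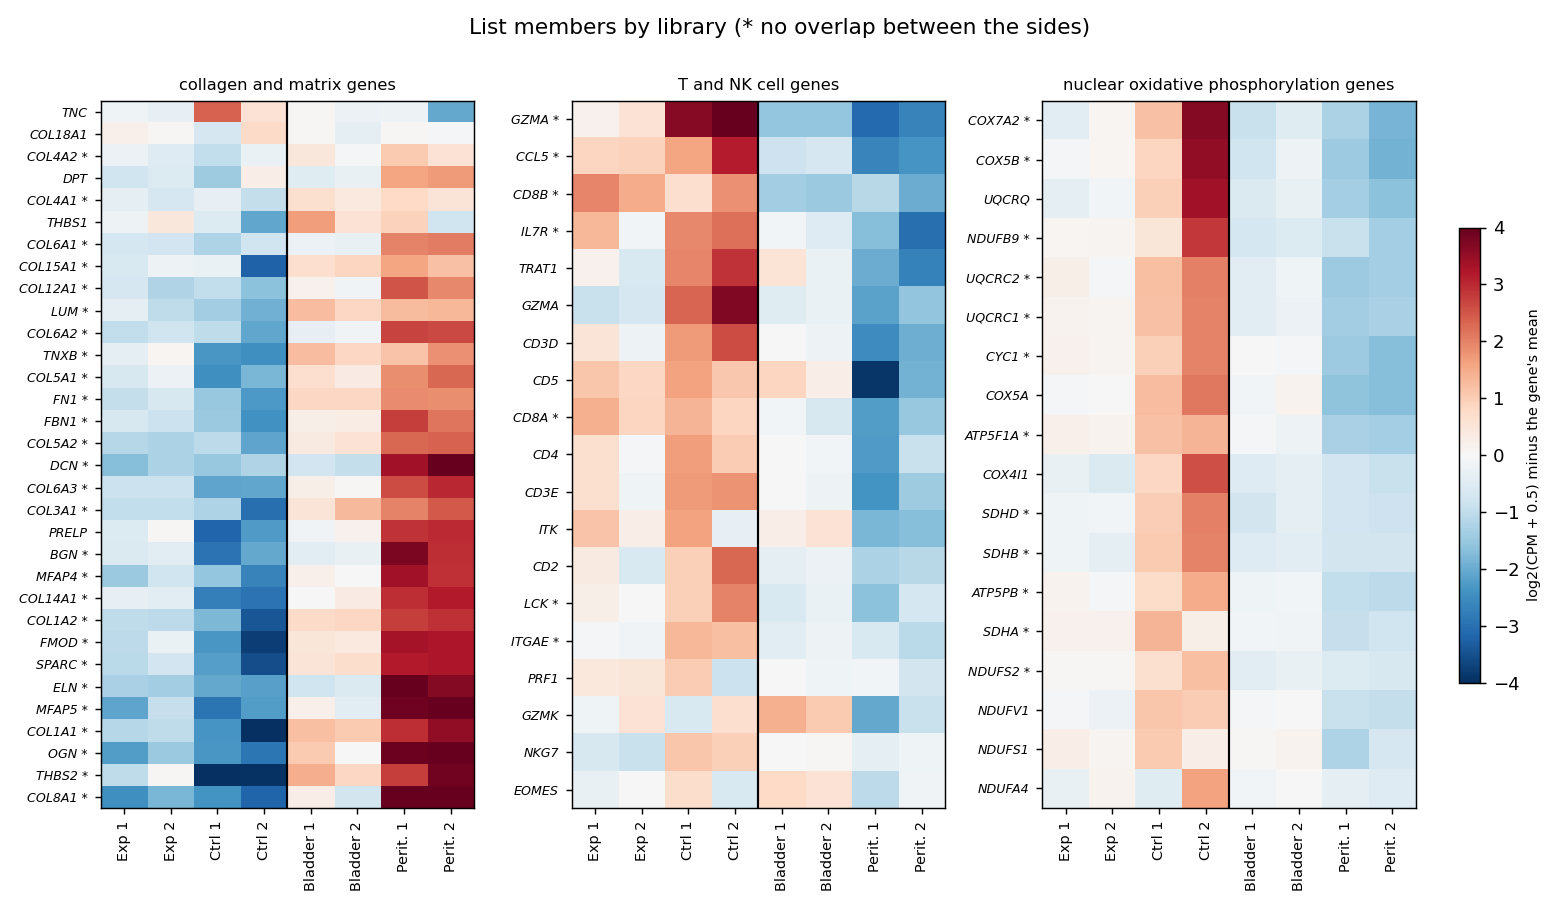
Log2(CPM + 0.5) of each list member in each library, minus the gene's mean over the 8 libraries, for 3 lists, with genes ordered by the contrast and the vertical line between neobladder and unoperated libraries. Asterisks mark genes without overlap, 27 of the matrix genes (lower), 7 of the T and NK cell genes (higher) and 12 of the oxidative phosphorylation genes (higher), and control neobladder replicate 2 is darkest in the last list.

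Collagen and matrix genes gave the clearest shared decrease. Of 32 tested, 27 were without overlap, all lower, and 29 were called lower with 0 higher, at a median log2 fold change of -2.80. The shares were 84.4% and 90.6%, beside 6.76% and 13.1% of all genes tested. COL1A1, the main chain of type I collagen, stood at 812 and 889.6 CPM in experimental and 355 and 95.9 CPM in control neobladder, against 4144 and 3747 CPM in native bladder and 14032 and 21332 CPM in peritoneum. Its partner COL1A2 stood at 1344 and 1309 and 772 and 252 CPM against 4650.1 and 4776 and 18528 and 20529 CPM. COL3A1, of the type III collagen that forms fine fibrils with type I, stood at 1091 and 1082 and 915 and 267 CPM against 3082 and 5293 and 8496 and 11927 CPM. All 3 genes had the same order, with control neobladder replicate 2 lowest and peritoneum highest. Log2 fold changes were -4.25 ± 0.55 (SE, adjusted p = 0.000472) for COL1A1, -3.54 ± 0.50 (adjusted p = 0.000735) for COL1A2 and -3.03 ± 0.51 (adjusted p = 0.00207) for COL3A1.

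Other matrix classes fell with the fibrillar collagens. The small proteoglycans decorin (DCN), lumican (LUM), biglycan (BGN), fibromodulin (FMOD) and osteoglycin (OGN), which bind collagen fibrils, were all without overlap and called. OGN stood at 13.7 and 23.4 CPM in experimental and 13 and 8.62 CPM in control neobladder, against 138 and 66 CPM in native bladder and 1011 and 1057 CPM in peritoneum (log2 fold change -4.51 ± 0.40 SE, adjusted p = 8.7e-05). Elastic fibre genes ELN, FBN1, MFAP4 and MFAP5 were likewise lower, and so were fibronectin (FN1), SPARC and THBS2. COL8A1, a short-chain collagen of vessels and membranes, stood at 4.41 and 7.14 and 4.68 and 2.44 CPM against 31.7 and 15.7 and 1063 and 884 CPM (-5.05 ± 0.41 SE, adjusted p = 8.45e-05). Basement membrane chains moved less, with -1.16 ± 0.27 (adjusted p = 0.0106) for COL4A1 and -1.01 ± 0.28 (adjusted p = 0.0238) for COL4A2. The 5 members that overlapped were COL18A1, DPT, PRELP, THBS1 and TNC. DPT and PRELP were called lower, while tenascin C (TNC), a matrix protein of injury and development, was not called (log2 fold change 1.24 ± 0.47 SE, adjusted p = 0.0742).

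The matrix count without overlap moved little with the scaling, at 28 members on library totals and 26 with DESeq2 size factors, all lower. Without each library in turn it also stayed within 26 to 28. With a library left out the rule compares fewer libraries, so this count can hardly fall and its steadiness there shows little. Against each tissue the difference varied in size. Experimental neobladder had a median log2 difference of -1.06 from native bladder in this list, with 0 of 32 genes called, and of -3.35 from peritoneum with 28 called. Control neobladder had -2.32 from native bladder with 23 called and -4.35 from peritoneum with 29 called lower and 1, TNC, higher. These 4 comparisons share their libraries, and of all genes tested they called 0.0544%, 11.8%, 11.1% and 20.6% lower in the order given. Summed over the list, levels were 5869 and 6355 CPM in experimental neobladder, 3706 and 1830 CPM in control neobladder, 19025 and 20686 CPM in native bladder and 82119 and 100668 CPM in peritoneum. Markers of other stromal cells did not all follow. Of 18 endothelial genes 11 were called lower (61.1%, beside 13.1% of all genes tested). Only TEK, the angiopoietin receptor, was without overlap (5.56%, beside 6.76%). Of 17 smooth muscle genes CALD1, HSPB6 and SYNPO2 were called lower and ACTG2, CNN1 and DES higher. Each direction held 17.6% of that list, beside 13.1% lower and 13.7% higher of all genes tested. Summed endothelial levels were 882 and 809.9 CPM in experimental neobladder and 717 and 932 CPM in native bladder, and the part of stromal cell content in the matrix difference was not tested.

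Genes that build and remodel matrix were lower in part. Of 19 matrix turnover genes 6 were without overlap, all lower: the cross-linking oxidases LOX, LOXL1 and LOXL2, the proteases MMP2 and MMP19 and the aggrecanase ADAMTS5. These were 31.6% of the list, and 57.9% were called lower, beside 6.76% and 13.1% of all genes tested. LOX stood at 33.8 and 26.3 CPM in experimental and 37.7 and 14.1 CPM in control neobladder, against 75 and 72.7 CPM in native bladder and 679.9 and 795 CPM in peritoneum. MMP1, MMP9 and MMP13 went the other way by the test, all with overlap, with log2 fold changes of 4.57 ± 0.55 (SE, adjusted p = 0.000351) for the collagenase MMP1 and 4.57 ± 0.43 (adjusted p = 0.000103) for the gelatinase MMP9. MMP1 stood at 4359 and 4484 CPM in experimental neobladder, 597 and 546 CPM in control neobladder, 2169 and 467 CPM in native bladder and 2.75 and 4.01 CPM in peritoneum. Counts of turnover genes called lower were 11, and 5 without experimental replicate 1, 6 without native bladder replicate 1 or peritoneum replicate 2 and 7 without peritoneum replicate 1. Of 15 myofibroblast and TGF-beta genes, CTHRC1, FAP and PDGFRB were without overlap and 9 were called lower. Those shares were 20% and 60%, beside 6.76% and 13.1% of all genes tested. ACTA2, smooth muscle actin and the usual mark of myofibroblasts, was not called (log2 fold change -0.24 ± 0.34 SE, adjusted p = 0.641), but it differed widely within each side. It stood at 2778 and 3102 CPM in experimental and 439 and 327 CPM in control neobladder. Native bladder had 2737 and 3056 CPM and peritoneum 524 and 557 CPM.

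CTHRC1, a secreted protein of matrix-depositing fibroblasts, had the widest gap of the lower genes. It stood at 3.22 and 3.43 CPM in experimental neobladder, 0.218 and 0 CPM (2 counts in all) in control neobladder, 24.2 and 31.5 CPM in native bladder and 118 and 60.5 CPM in peritoneum, with a gap of 6.29-fold (adjusted p = 7.34e-05). MMP16, a membrane-bound metalloprotease, stood at 3.73 and 3.25 CPM and 0.327 and 0 CPM (3 counts) in the neobladders and at 13.4 and 12.1 and 22.9 and 12.5 CPM in the unoperated tissues. A pair of connective tissue genes, the secreted factor ANGPTL1 and the keratan sulphate proteoglycan osteomodulin (OMD), stood far higher in peritoneum than in the other groups. ANGPTL1 stood at 3.48 and 2.97 and 1.85 and 2.81 CPM against 15.1 and 13.4 CPM in native bladder and 183 and 209 CPM in peritoneum, and OMD at 3.64 and 5.75 and 1.63 and 3 CPM against 22.5 and 20.4 and 411 and 553 CPM.

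Other lower genes with a wide gap included RECQL and TEAD2. RECQL, a DNA helicase of genome maintenance, stood at 4.15 and 3.34 CPM in experimental and 4.14 and 2.06 CPM in control neobladder, against 19.1 and 15.2 CPM in native bladder and 17.3 and 16.6 CPM in peritoneum (log2 fold change -2.30 ± 0.33 SE, adjusted p = 0.000769). TEAD2, a DNA-binding partner of YAP in Hippo signalling, stood at 2.46 and 3.71 and 1.52 and 2.44 CPM against 12.4 and 12.6 and 20.3 and 17.3 CPM (-2.65 ± 0.33 SE, adjusted p = 0.00042). SRGAP3, a GTPase regulator of cell shape, differed by -2.99 ± 0.39 on the log2 scale (adjusted p = 0.000487) and the FGF signalling inhibitor IL17RD by -3.58 ± 0.47 (adjusted p = 0.000523). RECQL, TEAD2, SRGAP3 and IL17RD showed no called difference between the reservoirs. FBXL7, a ubiquitin ligase subunit, stood at 27 and 30.5 CPM in experimental and 11.8 and 8.99 CPM in control neobladder, against 87.5 and 87 and 103 and 102 CPM. Of 28 replication and repair genes, 4 were without overlap, all lower, among them NEIL2, PARP1 and XPC. The called shares of this list, 3.57% higher and 10.7% lower, were below those of all genes tested (13.7% and 13.1%), and its share without overlap was 14.3% lower beside 6.76%. NEIL2, a glycosylase of oxidised bases, and XPC, which finds bulky DNA lesions, were called (adjusted p = 0.001 and 0.0219), while PARP1, a sensor of DNA strand breaks, was not (adjusted p = 0.0513).

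**Figure D4:**
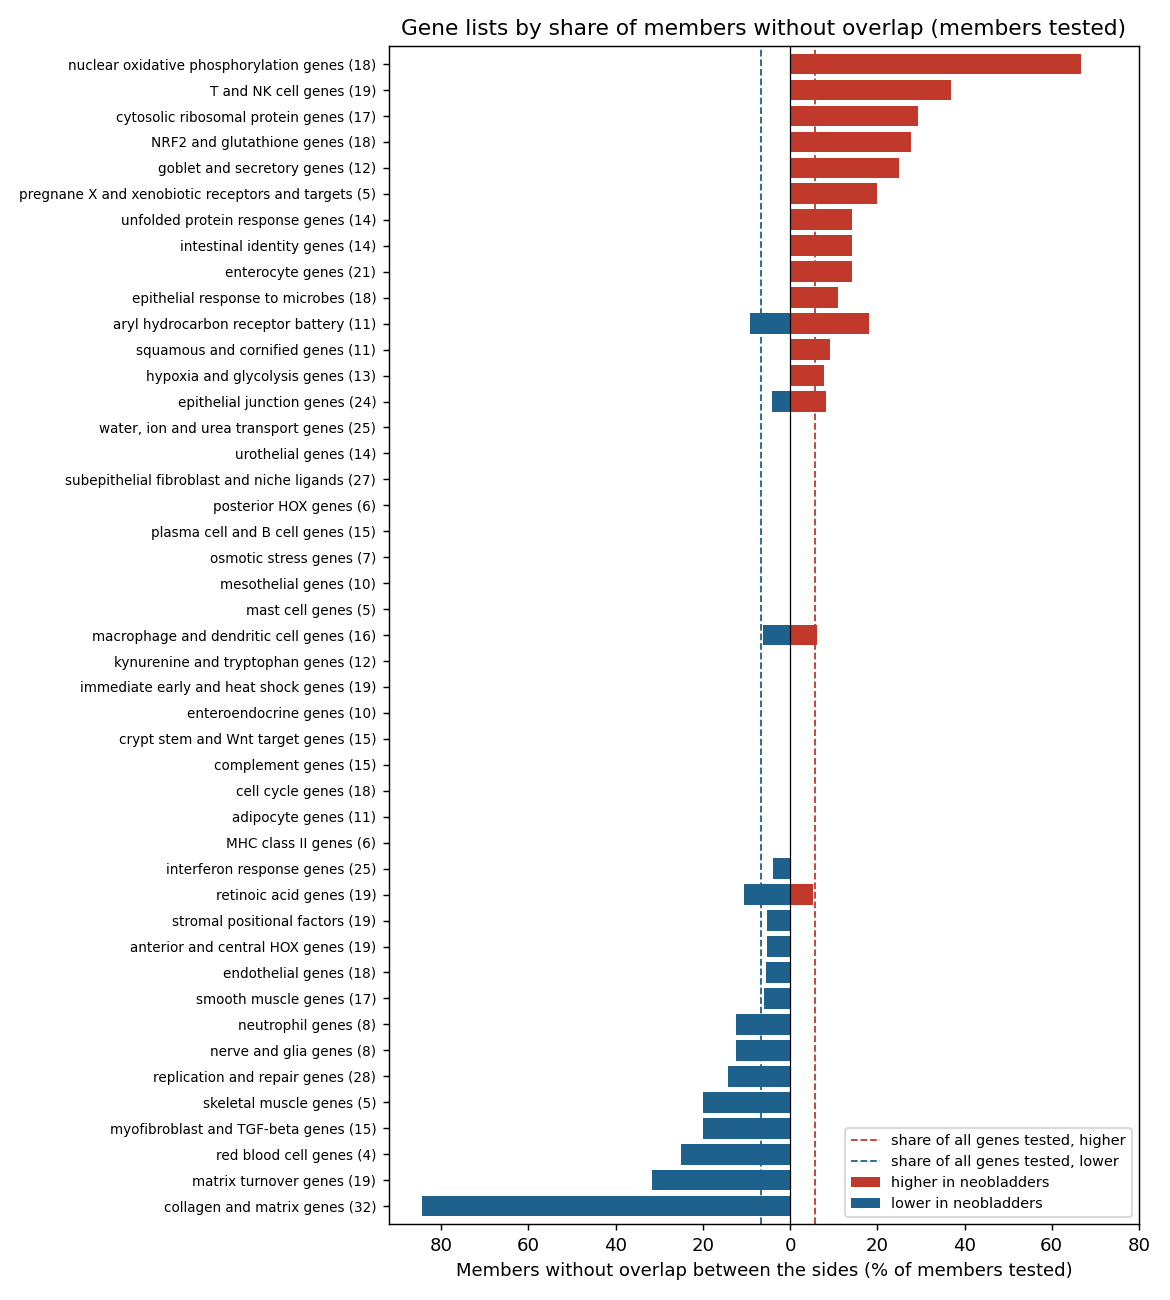
Share of tested members without overlap between the sides in each of 45 gene lists, as higher (right, red) or lower (left, blue) in the neobladders, with the number tested in brackets and dashed lines at the shares over all genes tested (5.61% and 6.76%). Collagen and matrix genes extend farthest to the left, at 84.4%, and nuclear oxidative phosphorylation genes farthest to the right, at 66.7%.

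Many lists had 0 members without overlap, among them urothelial (14 tested), mesothelial (10), plasma cell and B cell (15), MHC class II (6), complement (15), mast cell (5), osmotic stress (7), posterior HOX (6), cell cycle (18), immediate early and heat shock (19) and water, ion and urea transport genes (25). Some of these held calls all the same, for example 14 of 25 transport genes higher (56%, beside 13.7% of all genes tested). Urothelial genes were high on both sides, at a summed 5471 and 10080 CPM in experimental neobladder and 11527 and 10230 CPM in native bladder, against 605 and 376 CPM in control neobladder and 561 and 1005 CPM in peritoneum. Of 7 osmotic stress genes, the taurine carrier SLC6A6 was called higher (1.65, adjusted p = 0.0162) and the osmosensing factor NFAT5 lower (-1.06, adjusted p = 0.0307), both with overlap.

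The reservoirs were then compared within the genes they share. Of the 928 higher genes, 212 (22.8%) stood higher in control than in experimental neobladder by the test and 4 (0.431%) the other way, which were CYP1A1, the cytoskeletal protein gene CSRP1 and a pair with no symbol, beside 11.3% and 10.4% of all genes tested. Of the 1119 lower genes, 158 (14.1%) stood lower in control than in experimental neobladder and 5 (0.447%) the other way, among them NEIL2, FAM180A and the carrier gene SLC16A9. The mean of control neobladder was the farther one from the unoperated tissues in 810 higher and 932 lower genes. The rule used these same libraries, and the counts depend on the scaling. Together, 162 genes without overlap were higher and 217 lower in experimental than in control neobladder, while on library totals, with other genes without overlap, the counts were 287 and 76. They were 67 and 54 without experimental replicate 2 and 373 and 489 without control replicate 1. On the other side, native bladder exceeded peritoneum in 153 higher genes and peritoneum exceeded native bladder in 0, and peritoneum exceeded native bladder in 254 lower genes and native bladder exceeded it in 2 (RBBP8 and STEAP4), beside 9.93% of all genes higher in peritoneum and 11.1% higher in native bladder. In all, 604 higher and 777 lower genes showed no called difference within either side.

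**Figure D5:**
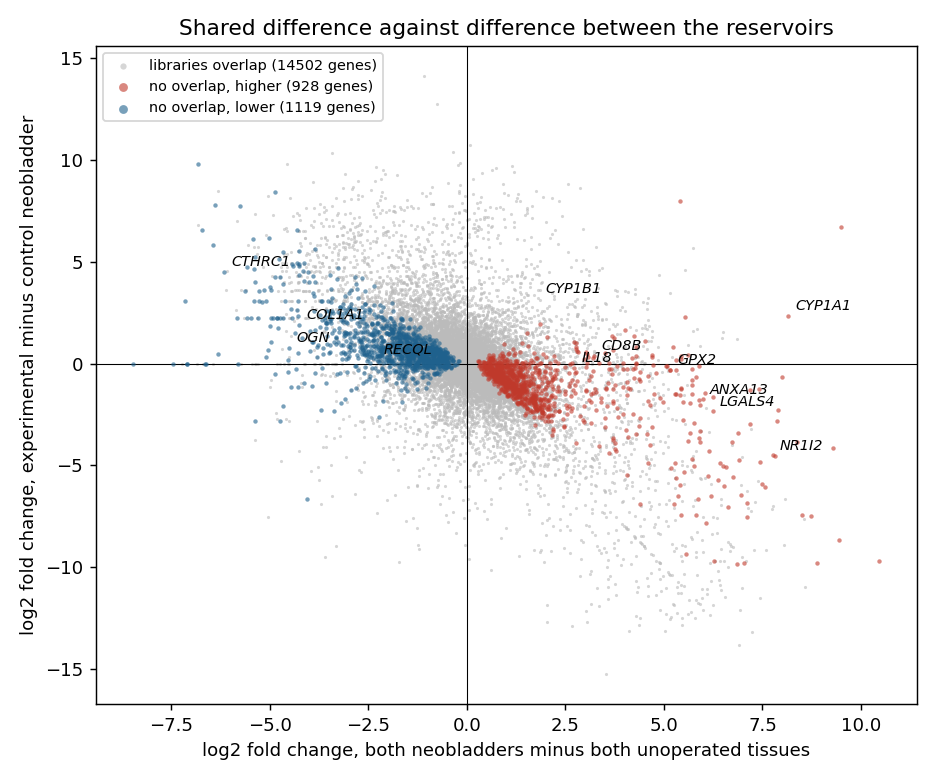
Log2 fold change of both neobladders minus both unoperated tissues (x axis) against that of experimental minus control neobladder (y axis) for the genes tested, with genes without overlap in red (928 higher) and blue (1119 lower) and the rest in grey. Red points lie mostly below 0 and blue points mostly above 0 on the y axis, and points at the far left and right include genes with 0 counts in a group.

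Taken tissue by tissue, the kept genes were called to very different extents. Against native bladder, experimental neobladder was called higher in 4 of the 928 higher genes and lower in 2 of the 1119 lower genes, beside 0.0423% and 0.0544% of all genes tested. Against peritoneum the counts were 317 and 530 (12.4% and 11.8% of all genes). Control neobladder gave 433 and 429 against native bladder (11.2% and 11.1%) and 745 and 836 against peritoneum (21.6% and 20.6%). The rule used these same libraries, so nothing is read from these shares beyond their size. The 4 higher genes were CYP1A1, NR1I2 and a pair with no symbol, and the 2 lower genes were NEIL2 and FAM180A, all singled out here after their values were seen. Of the pair, ENSSSCG00000005961 stood at 66.8 and 151 CPM in experimental neobladder, 0.436 and 0.375 CPM in control neobladder, 0.0808 and 0.224 CPM in native bladder and 0.204 and 0.0891 CPM in peritoneum. NEIL2 stood at 1.86 and 0.927 CPM in experimental neobladder, 8.06 and 9.37 CPM in control neobladder, 19.9 and 27.3 CPM in native bladder and 9.78 and 12.9 CPM in peritoneum. NEIL2 was farther from the unoperated tissues in experimental than in control neobladder (experimental minus control -2.62, adjusted p = 0.00421).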

How the data were processed

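The deposited files hold raw counts of reads per Ensembl gene, and per the submitters' processing notes the tools were Trim Galore, HISAT2 and, at version 0.11.1, HTSeq, with Sscrofa11.1 as the build. Settings and annotation release are not given in the sources used here. Per the labels, RNA went through Smart-seq2 and TruSeq preparation for Illumina sequencing. Symbols came from a table of gene names (15029 of 31907 genes) and positions from RefSeq's Sscrofa11.1 table, matched by symbol.

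Counts were analysed with edgeR 4.0.16 in R 4.3.3: filterByExpr over 4 groups, TMM scaling, and 1 robust quasi-likelihood fit of 4 group means (4 residual degrees of freedom, biological coefficient of variation 0.38). The contrast was the average of the neobladder means minus the average of the unoperated means, with Benjamini-Hochberg adjustment over 16549 genes, and the tests between single groups used the same fit. Fold changes are on the log2 scale. A fold change against a group with 3 counts or fewer depends on the prior count, so the levels are given instead. In a library 3 counts equal 0.224 to 0.562 CPM, which covers counting error only.

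Genes were named by rule: the markers CYP1A1, CYP1B1 and NR1I2; in each direction the 12 called genes without overlap with the widest gap among those with a symbol and a mean of 5 CPM or more; for each list up to 3 members without overlap and its most abundant member; and the genes at the edge of the rule. Other list members are named to account for their list. The rule, the members and the 45 gene lists were chosen with earlier results of these data known. The settings varied were the library scaling (size factors of DESeq2 1.42.0 or library totals), the test (DESeq2, 2 groups of 4 libraries, a threshold of 1.5-fold, a replicate block), the low-count filter, the width of the gap and the set of libraries, each left out in turn. List members were counted under scalings and left-out libraries by a choice made with the data in view. Promoter sequences were not used here. A few genes that the naming rule picks are not reported here.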

Additional observations from a re-analysis of the deposited data

Results flagged for a closer look

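Of the 24 genes with the widest gaps between the sides, 11 differed between the reservoirs by edgeR's quasi-likelihood test of experimental against control neobladder, with an adjusted p below 0.05. Over all genes tested this contrast called 10.4% higher and 11.3% lower in experimental neobladder. Higher in experimental neobladder were CYP1A1 (log2 difference 2.35, adjusted p = 0.013), the ubiquitin ligase gene FBXL7 (1.46, adjusted p = 0.0134), CTHRC1 (4.50, adjusted p = 0.0029) and MMP16 (4.05, adjusted p = 0.00544). The last pair had 2 and 3 counts in the control libraries, so the size of their difference depends on the prior count. FBXL7, CTHRC1 and MMP16 are genes lower in both neobladders, so the experimental libraries lay nearer to the unoperated tissues, whereas in CYP1A1 they lay farther away.

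Lower in experimental neobladder were the pregnane X receptor gene NR1I2 (-4.50, adjusted p = 0.000188), MYO15B (-4.54, adjusted p = 0.000529), GZMA (-3.85, adjusted p = 0.000588), MGST2 (-3.60, adjusted p = 0.00357), SLC5A8 (-2.96, adjusted p = 0.0137), GZMH (-2.19, adjusted p = 0.00918) and CCL5 (-1.67, adjusted p = 0.032). All 7 are genes higher in both neobladders, and experimental neobladder lay between control neobladder and the unoperated tissues in each. With 2 libraries a group, no group was large enough to look for single samples far from the rest.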

How the results depend on the processing

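Treating the 4 libraries of a side as replicates gave 0 calls in either direction (3497 genes at an unadjusted p under 0.05). Library totals alone gave 1016 genes called higher, 302 without overlap as higher and 1878 as lower, and among the genes without overlap 287 higher and 76 lower in experimental than in control neobladder, against 162 and 217 with TMM. A test against a 1.5-fold change called 1400 higher and 1310 lower, and a gap of at least 1.5-fold left 122 and 234 genes without overlap. Leaving out 1 library gave 1232 to 3515 genes called higher, 1155 to 3322 called lower, 1108 to 1530 without overlap as higher and 1291 to 1842 as lower. The extremes of the calls were without native bladder replicate 1 (1232 higher), without experimental replicate 2 (1155 lower) and without control replicate 1 (3515 and 3322), where the lone control library was assumed to vary like the other groups. The differences between the reservoirs among genes without overlap ran from 67 to 373 higher and 54 to 489 lower. With a library left out the rule compares fewer libraries, so counts without overlap can rise for that reason alone. Causes were not tested. The labels do not say that replicate numbers pair samples, and replicate differences correlated across groups at -0.115 to 0.128. With the replicate block 2026 genes were called higher and 1911 lower, and 146 and 175 differed between the reservoirs. Named genes kept their direction and side of the threshold in 1508 of the alternative fits, lost the call in 224, gained one in 42, moved without a test in 10 and reversed in 1, HBB, from 0.29 to -0.97 without control replicate 2 (0.73 without control replicate 1). Depth limits genes near 3 counts.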

Other observations

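Genes of retinoic acid handling were called lower in 8 of 19 cases and higher in 2 (42.1% and 10.5%, beside 13.1% and 13.7% of all genes tested), and the cytosolic binding protein gene CRABP1 was among those without overlap as lower genes. RBP2, the intestinal form, was without overlap as a higher gene, at 2.46 and 0.835 CPM in experimental neobladder, 41.9 and 176 CPM in control neobladder and 0.374 CPM or less in the unoperated tissues. CRABP1 stood at 4.24 and 9.74 CPM in experimental and 0.109 and 2.25 CPM in control neobladder, against 11.2 and 19.5 CPM in native bladder and 35.8 and 46.8 CPM in peritoneum (log2 fold change -3.23, adjusted p = 0.00263). Anterior and central HOX genes, which mark position along the trunk, were called lower in 9 of 19 cases (47.4%) and higher in 0.

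Macrophage genes split. CD68, a lysosomal protein of macrophages, was higher without overlap (log2 fold change 1.27, adjusted p = 0.0126), and MRC1, the mannose receptor of tissue-resident macrophages, was lower without overlap, at 5.76 and 5.56 CPM in experimental and 16.7 and 9.93 CPM in control neobladder, against 18.2 and 18.2 CPM in native bladder and 17.5 and 30.2 CPM in peritoneum (-1.26, adjusted p = 0.0124). CD68 overlapped on library totals. The lactate dehydrogenase gene LDHA was the only hypoxia and glycolysis gene of 13 without overlap (1.23, adjusted p = 0.018). KRT10, a keratin of cornifying epithelium, was the only squamous gene of 11 (1.17, adjusted p = 0.0146). The shares of the hypoxia and squamous lists, 7.69% and 9.09%, lay near the 5.61% of all genes tested.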
